A study of Mus musculus with 9 samples.

Results

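The transcripts described here are 42 genes that hepatocytes, the parenchymal cells of the liver, express at high levels, measured in liver macrophages that had been sorted away from hepatocytes. The genes were chosen by name, as plasma proteins, metabolic enzymes and cytochromes P450 of the hepatocyte, with earlier results of these data known. All 42 had an entry among the 24312 genes of the table. Bulk RNA-seq had been performed on Ly6C-low F4/80+ cells, taken from among CD45.2+ CD11b+ Ly6G- liver cells negative for B220, CD90.2, NK1.1 and SiglecF. Before the sort the liver had been perfused with collagenase, hepatocytes had been spun down at low speed, and dead cells were excluded at the sorter. The mice were wild-type C57BL/6J males, 6 to 12 weeks old at the start. They were fed CDA-HFD for 7 weeks (7w) or 10 weeks (10w), or a normal diet (ND). CDA-HFD is a high-fat diet without choline, low in methionine and with amino acids in place of protein. Each group held 3 libraries from separate mice. CDA-HFD is a model of steatohepatitis with fibrosis, and all groups carried the same genotype and no transgene. The sort did not separate resident Kupffer cells from macrophages derived from monocytes, and whole liver was not analysed here.

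Hepatocytes secrete most of the proteins of blood plasma and carry out gluconeogenesis, urea synthesis, amino acid breakdown and the oxidation of drugs. Their mRNAs are among the most abundant in the liver, so that material from a few hepatocytes can be seen in preparations of other liver cells. Macrophages also take up dead cells and cell fragments. In bulk samples, fewer cells of a type and less RNA per cell cannot be told apart.

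The hepatocyte transcripts were present in every library and were lower in both CDA-HFD groups than in ND. Their summed level was 274, 257 and 285 FPKM (fragments per kilobase of transcript, scaled to the mapped reads of the library) at 7w and 288, 206 and 352 FPKM at 10w, against 1277, 655 and 1452 FPKM in ND. All 6 CDA-HFD libraries lay below all 3 ND libraries, and the mean sum with CDA-HFD was 24.6% of that in ND. In a CDA-HFD library the 42 genes held 0.0458% to 0.0774% of all FPKM, and in an ND library 0.146% to 0.321%. Between 31 and 36 of the genes reached 1 FPKM in a CDA-HFD library and between 37 and 41 in an ND library. At 10 FPKM the difference was wider, with 6 to 10 genes in a CDA-HFD library and 19 to 31 in an ND library.

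**Figure D1:**
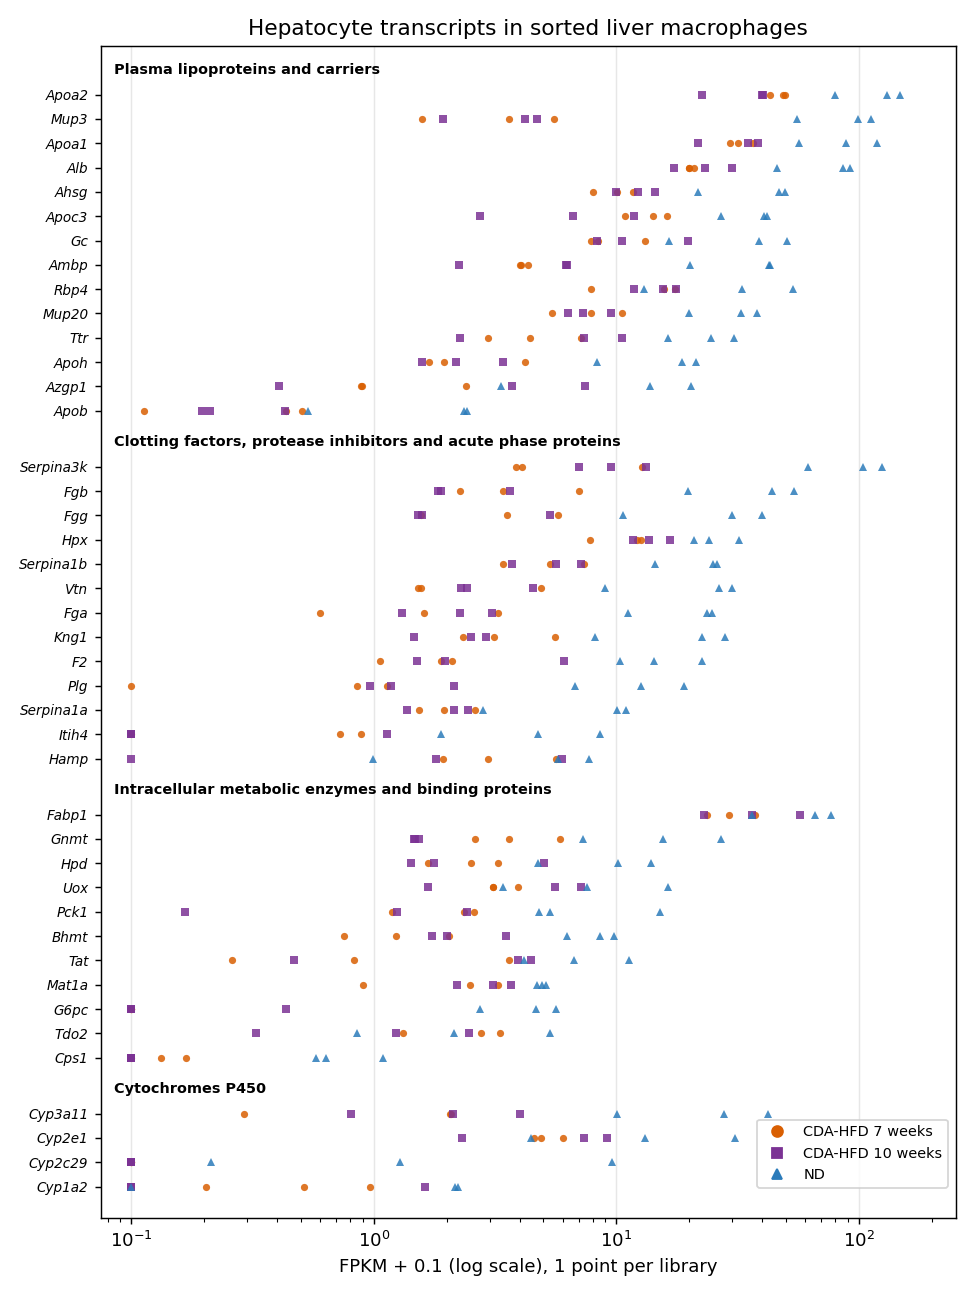
Level of each of the 42 hepatocyte transcripts in each library, as FPKM + 0.1 on a log axis, grouped by role and ordered within a role by the mean in ND. Points are libraries (circles, CDA-HFD 7 weeks; squares, CDA-HFD 10 weeks; triangles, ND). For 31 genes all CDA-HFD points lie left of all ND points.

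The estimated depth was 5415334 to 6176847 reads per library, and 10990 to 11273 genes reached 1 FPKM in a library. The labelled cell type was present: the summed level of 13 Kupffer cell markers was 1611 to 1892 FPKM with CDA-HFD and 3051 to 3219 FPKM in ND. That list moved with the diet as well, with 12 of 13 markers lower with CDA-HFD, while 11 monocyte markers summed to 801 to 956 FPKM with CDA-HFD and 251 to 267 FPKM in ND, with 8 of the 10 tested higher and 1 lower. Over all genes tested, 24.3% were lower with CDA-HFD and 22.8% higher, by the test described below. The part of the change of the sorted cells in the hepatocyte result was not tested.

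One ND library stood apart. ND 2 had the lowest value of the 3 ND libraries for 39 of the 42 hepatocyte transcripts, and its level was 45.4% of the mean of ND 1 and ND 3 at the median (quartiles 29.9% and 55.8%). Over all 11783 genes tested the median of the same ratio was 99.2%, and 34.5% of genes were lowest in ND 2. Its estimated depth, 5484727 reads, lay between those of ND 3 (5415334) and ND 1 (5824870). In ND 2 the summed markers of Kupffer cells stood at 103%, those of sinusoidal endothelial cells at 101%, those of erythroid cells at 92.6% and those of neutrophils at 47.1% of the mean of ND 1 and ND 3. The 8 neutrophil markers with an entry summed to 45.5 FPKM in ND 2, beside 138 FPKM in ND 1 and 54.9 FPKM in ND 3, so the low percentage for that list rested on ND 1. Results that change without ND 2 are given with their values below.

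Most transcription factors that drive these genes in hepatocytes had little or no signal. Of 15 hepatocyte transcription factors, Foxa1, Foxa2 and Ppara were listed at 0 in all 9 libraries, and Hnf4a reached at most 0.307 FPKM. Only Cebpa and Nr1h4 passed the filter for testing, and neither was called. Cebpa, which myeloid cells also express, had 29.9 to 66.3 FPKM with CDA-HFD and 49.9 to 51.5 FPKM in ND. Foxa3 reached 1.27 FPKM in ND 2, and in 7w 3 Nr1h4 reached 1.69 FPKM and Nr0b2 2.31 FPKM. In the ND libraries Alb had 45.8 to 91.9 FPKM and Hnf4a 0.0818 to 0.264 FPKM. At this depth 1 read is worth 0.162 to 0.185 FPKM on a transcript of 1 kilobase, and less on a longer one. A factor at a low level can thus be missed. Whether the sorted cells transcribe the 42 genes was not tested.

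The promoters of the genes are shown for members the results turn on: Alb, the reference transcript of the hepatocyte, the near-identical pair Serpina1a and Serpina1b, Fabp1, which was retained most among the abundant genes, and Mup3, which had the largest fall of the members tested on the log2(FPKM + 1) scale. The sequences are from RefSeq (GRCm38.p6), are written 5′ to 3′ on the strand of the gene, and end at the start site or, for Fabp1 and Mup3, where an annotated exon of GENCODE begins. Capitals mark the FOXA core (TGTTTGC, or GCAAACA on the other strand). The stretches are chr5:90460620-90460869 on the plus strand for Alb, chr12:103863620-103863869 and chr12:103738190-103738439 on the minus strand for Serpina1a and Serpina1b, chr6:71199629-71199826 on the plus strand for Fabp1 and chr4:62087343-62087567 on the minus strand for Mup3.
Alb: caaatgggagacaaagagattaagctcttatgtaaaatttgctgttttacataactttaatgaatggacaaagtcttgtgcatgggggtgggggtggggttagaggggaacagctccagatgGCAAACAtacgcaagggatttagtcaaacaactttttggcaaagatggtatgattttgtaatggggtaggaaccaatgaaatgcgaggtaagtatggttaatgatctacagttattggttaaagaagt
Serpina1a: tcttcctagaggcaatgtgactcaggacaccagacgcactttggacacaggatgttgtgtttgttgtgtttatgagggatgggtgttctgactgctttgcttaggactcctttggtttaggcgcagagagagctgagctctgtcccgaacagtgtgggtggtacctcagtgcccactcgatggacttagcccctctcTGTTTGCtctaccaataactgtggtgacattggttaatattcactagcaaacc
Serpina1b: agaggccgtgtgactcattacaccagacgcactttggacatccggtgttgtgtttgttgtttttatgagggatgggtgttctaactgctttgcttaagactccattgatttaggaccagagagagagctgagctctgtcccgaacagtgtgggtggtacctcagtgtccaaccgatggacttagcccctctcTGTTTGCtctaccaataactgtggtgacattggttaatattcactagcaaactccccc
Fabp1: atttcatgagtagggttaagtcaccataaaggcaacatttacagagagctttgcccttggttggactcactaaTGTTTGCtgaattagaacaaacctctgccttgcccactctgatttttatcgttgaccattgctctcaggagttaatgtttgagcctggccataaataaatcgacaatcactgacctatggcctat
Mup3: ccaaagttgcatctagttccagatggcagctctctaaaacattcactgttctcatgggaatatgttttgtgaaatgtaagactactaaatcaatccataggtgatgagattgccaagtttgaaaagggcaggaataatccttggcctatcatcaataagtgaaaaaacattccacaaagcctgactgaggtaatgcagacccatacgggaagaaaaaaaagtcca

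The first 4 of these promoters each hold 1 FOXA core, and the stretch of Mup3 holds none. Over the 250 bases before the start, on both strands, the FOXA core was found in 10 of 36 promoters, which belong to 34 of the 42 genes, against 4.30% of 32851 promoters in the genome. The C/EBP motif TTGCNNAA was found in 11 of 36, against 9.56%, and the HNF4 motif CAAAGTCCA in 1 of 36, against 0.384%. The FOXA core occurred in Ahsg, Alb, Ambp, Apoa1, Apob, Fabp1, G6pc, Serpina1a, Serpina1b and Tdo2, which include both a strongly reduced gene (G6pc) and a well retained one (Fabp1). These motifs were picked from a larger number tried, and a match of letters is not a bound site. No promoter sequence was used for Ttr, Apoc3, Mup20, Serpina3k, Kng1, Plg, Mat1a and Cps1.

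Differences were tested with limma on log2(FPKM + 1) across all genes that reached 1 FPKM in 3 or more libraries, and a gene was called at an adjusted p below 0.05. Of the 42 hepatocyte transcripts 39 passed this filter, and Apob, Cps1 and Cyp2c29 did not. With CDA-HFD against ND (the mean of both time points minus ND), 32 were lower and 0 were higher, where 24.3% of all genes tested were called lower and 22.8% higher. The median log2 fold change was −1.81 over the 39 members and −0.03 over all genes tested. Of the 39, 3 genes, Itih4, G6pc and Cyp1a2, reached 1 FPKM in fewer than 3 CDA-HFD libraries and so passed through their ND values, and counts and medians over those tested lean downward for that reason. With no filter, 32 of 42 were lower, with a median of −1.78, where 18.6% of the 15907 genes in that fit were lower. For 31 members, of which 28 were among the 39 tested, all CDA-HFD values lay below all ND values, and for 0 above. Of all genes tested, 21.3% and 19.3% had such gaps.

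Each time point on the diet gave a like picture. At 7w 32 members were lower than in ND (22.4% of all genes tested were) and 0 higher, and at 10w 29 were lower (20.6% of all genes tested) and 0 higher, all 29 of them also lower at 7w. These comparisons share the ND libraries. Between 10w and 7w 0 members were called in either direction by limma, where 0.0255% of all genes tested were lower and 0.102% higher, and 2 members had an unadjusted p below 0.05. The mean was higher at 10w for 25 members and lower for 16. Within 10w, 10w 2 had the lowest value for 19 members and 10w 3 the highest for 21.

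**Figure D2:**
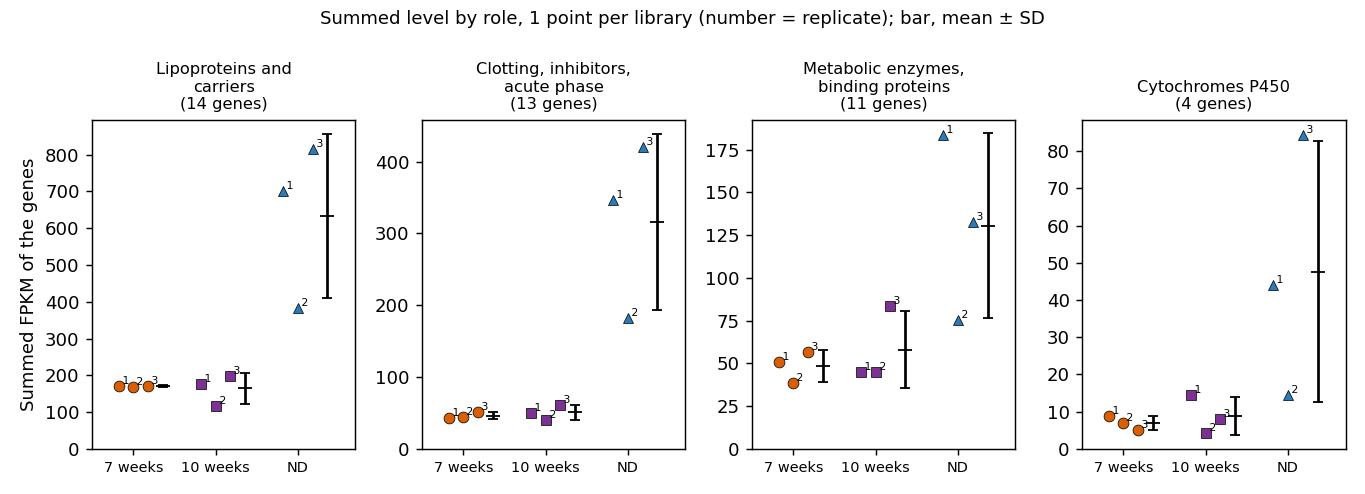
Summed FPKM of the hepatocyte transcripts of each role (y axis, from 0, a scale for each panel) in each library, grouped on the x axis as CDA-HFD 7 weeks, CDA-HFD 10 weeks and ND; numbers beside points are replicates, and bars give the mean ± SD of 3 libraries. ND 2 is the lowest ND library in all 4 panels, and it lies above all CDA-HFD libraries in the first 2 panels only.

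The plasma lipoproteins and carriers were the most abundant role and accounted for more than any other role of the difference in the sum. The 14 genes summed to 116 to 199 FPKM with CDA-HFD and 384 to 815 FPKM in ND. Of 13 tested, 12 were lower, and the exception was Rbp4. The median member kept 26.8% of its ND mean with CDA-HFD, with Mup3 at 3.92% and Rbp4 at 43.0% as the extremes.

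Apoa2, a structural protein of high-density lipoprotein, had 49.4, 43.0 and 48.5 FPKM at 7w and 40.0, 22.4 and 39.6 FPKM at 10w, against 131, 79.9 and 147 FPKM in ND. It was the highest member in 4 of the 6 CDA-HFD libraries and in all 3 ND libraries. Apoa1, the main protein of the same particle, had 36.6, 29.3 and 31.6 FPKM at 7w and 38.4, 21.6 and 34.7 FPKM at 10w, against 88.3, 56.6 and 118 FPKM in ND. The groups did not overlap for either gene, and the values of 10w 2 were the lowest. The log2 fold changes with CDA-HFD were −1.53 (SE 0.24, limma adjusted p = 0.00103) for Apoa2 and −1.39 (SE 0.24, limma adjusted p = 0.00148) for Apoa1.

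Alb encodes albumin, the most abundant plasma protein. It had 19.9, 20.8 and 19.9 FPKM at 7w and 17.2, 23.0 and 29.9 FPKM at 10w, against 86.1, 45.8 and 91.9 FPKM in ND. The ND library closest to the diet groups was ND 2, which still exceeded 10w 3. The values rest on an estimated 196 to 333 reads per CDA-HFD library and 461 to 921 reads per ND library. The log2 fold change was −1.69 (SE 0.22, limma adjusted p = 9.72e-05), with like values at 7w (−1.77) and 10w (−1.60).

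Apoc3 encodes an apolipoprotein that slows the clearance of triglyceride-rich particles. It had 16.1, 10.7 and 14.0 FPKM at 7w and 11.8, 2.65 and 6.53 FPKM at 10w, against 40.5, 26.9 and 41.7 FPKM in ND. The 10w values spread over a wider range than those at 7w, and the difference between 10w and 7w was not called (log2 fold change −1.03, SE 0.38, limma adjusted p = 0.230, the lowest of any member in that comparison). With CDA-HFD against ND the log2 fold change was −1.86 (SE 0.33, limma adjusted p = 0.000881).

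Ahsg, the fetuin that keeps calcium phosphate in solution, had 11.7, 9.94 and 7.92 FPKM at 7w and 12.2, 9.84 and 14.3 FPKM at 10w, against 46.6, 21.6 and 49.5 FPKM in ND. Gc, the vitamin D-binding protein, had 8.26, 12.99 and 7.76 FPKM at 7w and 10.4, 8.23 and 19.6 FPKM at 10w, against 38.6, 16.4 and 50.6 FPKM in ND. Both were lower with CDA-HFD, by limma at an adjusted p of 0.000117 for Ahsg (log2 fold change −1.68, SE 0.24) and 0.00656 for Gc (log2 fold change −1.50, SE 0.36). For Gc the groups overlapped, since 10w 3 exceeded ND 2.

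Rbp4, the plasma carrier of retinol, was the one tested carrier that was not called. It had 7.76, 15.6 and 17.4 FPKM at 7w and 17.5, 11.7 and 15.5 FPKM at 10w, against 32.9, 12.9 and 53.5 FPKM in ND. ND 1 and ND 3 lay above every CDA-HFD library and ND 2 lay among them. The log2 fold change was −1.0 (SE 0.42, limma adjusted p = 0.0800), and without ND 2 it was −1.54 (limma adjusted p = 0.00155).

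The major urinary proteins are lipocalins that mouse hepatocytes secrete and that carry pheromones in urine. Mup3 had 5.42, 1.48 and 3.49 FPKM at 7w and 1.83, 4.09 and 4.62 FPKM at 10w, against 99.2, 55.6 and 112 FPKM in ND. On the log2(FPKM + 1) scale it showed the largest fall of the 39 members tested, with a log2 fold change of −4.35 (SE 0.33, limma adjusted p = 8.08e-07). With a pseudocount of 0.1 the fall of G6pc, a low gene, was larger (−5.03, against −4.71 for Mup3), and Cyp2c29, G6pc and Cps1 kept smaller shares of their ND means than Mup3. Its relative Mup20, a male pheromone, had 5.33, 10.4 and 7.72 FPKM at 7w and 9.43, 6.21 and 7.15 FPKM at 10w, against 37.8, 19.8 and 32.6 FPKM in ND. Mup20 was lower with CDA-HFD as well (log2 fold change −1.81, SE 0.24, limma adjusted p = 5.92e-05) but kept 25.7% of its ND mean, where Mup3 kept 3.92%. Genes of this cluster on chromosome 4 are near-identical, so reads may be split between them in ways the table does not show, and the values of single Mup genes are uncertain. Outside the 42 genes, Mup7 was listed at 0 in all 6 CDA-HFD libraries, against 11.9, 8.89 and 24.6 FPKM in ND.

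The remaining carriers were called lower with log2 fold changes of −2.71 for Ambp, the precursor of alpha-1-microglobulin and bikunin, −2.27 for Apoh, −1.99 for Ttr, the thyroxine and retinol carrier transthyretin, and −1.95 for Azgp1. Azgp1 lay near the threshold (limma adjusted p = 0.0315) and was not called without 7w 2, without 7w 3, without ND 1 or without ND 3 (limma adjusted p of 0.0692, 0.0629, 0.110 and 0.121). Apob, the scaffold of very-low-density lipoprotein and the longest transcript of the set, did not pass the filter. It had 0.0133 to 0.407 FPKM with CDA-HFD and 0.434 to 2.33 FPKM in ND.

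The clotting factors, protease inhibitors and acute phase proteins kept the smallest share of their ND level of the 4 roles. Their 13 genes summed to 40.6 to 60.9 FPKM with CDA-HFD and 182 to 420 FPKM in ND, and the median member kept 12.8% of its ND mean. Of 13 tested, 12 were lower at 7w, at 10w and with both pooled, and the exception was Hamp.

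Serpina3k, a kallikrein-binding serine protease inhibitor of rodents, had 3.77, 3.97 and 12.6 FPKM at 7w and 6.89, 9.37 and 13.2 FPKM at 10w, against 104, 61.2 and 124 FPKM in ND. Only Apoa2 was higher in each ND library, while with CDA-HFD several members exceeded it in every library. The log2 fold change was −3.46 (SE 0.37, limma adjusted p = 5.55e-05).

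Fibrinogen, the precursor of fibrin, is built from the products of Fga, Fgb and Fgg. Fgb had 3.32, 2.16 and 6.93 FPKM at 7w and 3.53, 1.73 and 1.78 FPKM at 10w, against 43.8, 19.7 and 53.7 FPKM in ND. All CDA-HFD values were far below the lowest ND value. The log2 fold change was −3.23 for Fgb (SE 0.35, limma adjusted p = 1.23e-05), beside −2.84 for Fga and −2.70 for Fgg, so that the 3 chains kept 8.30%, 9.70% and 11.7% of their ND means.

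Serpina1a and Serpina1b encode forms of alpha-1-antitrypsin, the main inhibitor of neutrophil elastase in plasma. Serpina1a had 1.44, 2.52 and 1.85 FPKM at 7w and 1.27, 2.34 and 2.04 FPKM at 10w, against 9.94, 2.72 and 10.8 FPKM in ND. Serpina1b had 5.21, 7.27 and 3.31 FPKM at 7w and 5.54, 3.61 and 7.07 FPKM at 10w, against 26.0, 14.3 and 24.96 FPKM in ND. Both kept about the same share of the ND mean, 24.4% for Serpina1a and 24.5% for Serpina1b, and ND 2 exceeded the highest CDA-HFD value of Serpina1a by little. Their promoters, printed above, matched at 225 of 243 aligned bases (92.6%, with 14 bases in gaps), and the copies share reads, so values of single copies are uncertain. The log2 fold changes were −1.45 (SE 0.36, limma adjusted p = 0.00530) and −1.84 (SE 0.27, limma adjusted p = 0.000135). The other copies, Serpina1c, Serpina1d and Serpina1e, which were not among the 42 genes, had larger falls, with log2 fold changes of −2.82, −2.87 and −3.88.

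The other clotting factors fell in the same range. Plg, the precursor of the fibrin-degrading protease plasmin, had a log2 fold change of −2.77, Vtn, an adhesive plasma protein, −2.51, F2, prothrombin, −2.38, Kng1, the bradykinin precursor, −2.31, and Itih4 −1.98. Itih4 was listed at 0 in 3 CDA-HFD libraries and had 1.03 FPKM at most in the others, against 1.79 to 8.44 FPKM in ND. Hpx, the plasma scavenger of heme, fell least among the called genes of this role. It had 7.71 to 16.6 FPKM with CDA-HFD and 20.9 to 32.0 FPKM in ND without overlap, kept 48.1% of its ND mean, and had a log2 fold change of −1.01 (SE 0.19, limma adjusted p = 0.000970). Hamp, the iron-regulating hormone hepcidin, was variable at low values, from listed at 0 to 5.89 FPKM with CDA-HFD and 0.887 to 7.63 FPKM in ND. Its transcript is short, these values rest on an estimated 8.72 reads at most per library, and no difference was detectable (log2 fold change −0.53, SE 0.64, limma adjusted p = 0.537).

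**Figure D3:**
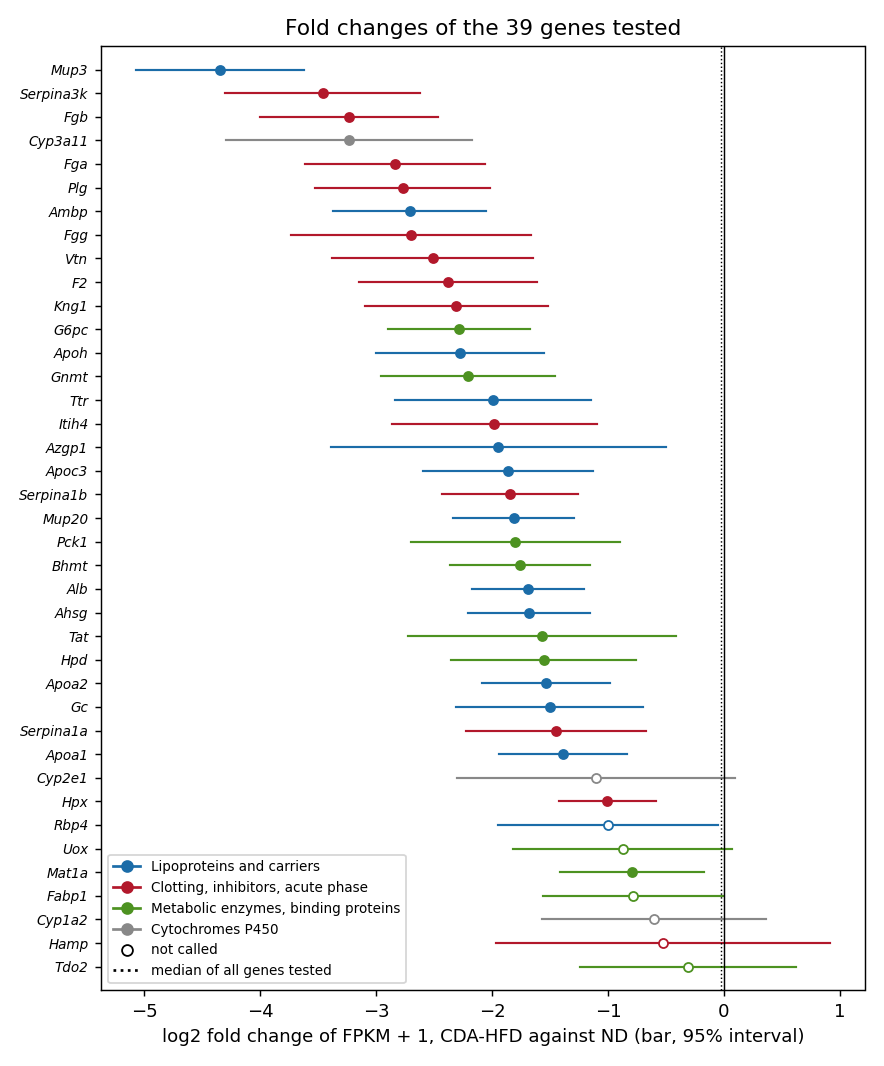
Log2 fold change of FPKM + 1 with CDA-HFD against ND for the 39 hepatocyte transcripts tested, with 95% intervals of limma, ordered from the largest fall and coloured by role. Filled points were called at an adjusted p below 0.05 and the dotted line is the median of all genes tested at −0.03; all 39 points lie below 0, and the 7 open points are all among the 9 smallest falls.

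Most intracellular enzymes and binding proteins were lower as well. Their 11 genes summed to 38.5 to 83.8 FPKM with CDA-HFD and 75.2 to 184 FPKM in ND, and the sums overlapped because 10w 3 exceeded ND 2. The median member kept 26.4% of its ND mean, and differences between roles were not tested. Of 10 tested, 7 were lower with CDA-HFD, 7 at 7w and 5 at 10w, and Fabp1, Uox and Tdo2 were not called with CDA-HFD.

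Fabp1, the fatty acid-binding protein of hepatocyte cytosol, made up 51.0% to 80.1% of this sum with CDA-HFD and 41.9% to 49.4% in ND. It had 28.9, 23.5 and 37.1 FPKM at 7w and 36.2, 22.9 and 56.9 FPKM at 10w, against 76.9, 36.1 and 65.7 FPKM in ND. ND 1 and ND 3 were above all CDA-HFD libraries, while ND 2 was below 7w 3, 10w 1 and 10w 3. The log2 fold change was −0.78 (SE 0.33, limma adjusted p = 0.0915). It was called without ND 2 (−1.10, limma adjusted p = 0.0273) and without 10w 3 (−0.94, limma adjusted p = 0.0294).

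Enzymes of choline and methionine metabolism were among the members. Gnmt, which methylates glycine, had 1.36 to 5.73 FPKM with CDA-HFD and 7.16 to 26.8 FPKM in ND (log2 fold change −2.20, SE 0.34, limma adjusted p = 0.000223). Bhmt, which passes a methyl group from betaine to homocysteine, had 0.653 to 3.40 FPKM with CDA-HFD and 6.17 to 9.68 FPKM in ND (log2 fold change −1.76, SE 0.28, limma adjusted p = 0.000238). Neither overlapped between the groups. Mat1a, the liver form of methionine adenosyltransferase, lay near the threshold (log2 fold change −0.79, SE 0.29, limma adjusted p = 0.0378) and was not called without any 1 of the 3 ND libraries, 7w 3, 10w 1 or 10w 2 (limma adjusted p of 0.0526 to 0.107). In a wider list of 14 choline and methionine cycle genes, of which 11 were tested, 6 were lower and 0 higher. Their median log2 fold change was −0.69, and over all genes tested 24.3% were lower and 22.8% higher.

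Gluconeogenesis and amino acid breakdown were represented by genes that were low in all groups. G6pc, which releases glucose from its phosphate, was listed at 0 in 5 CDA-HFD libraries and had 0.333 FPKM in 10w 2, against 4.58, 2.64 and 5.55 FPKM in ND (log2 fold change −2.28, SE 0.28, limma adjusted p = 3.52e-05). Pck1, which commits carbon to glucose synthesis, had a log2 fold change of −1.80 and Hpd, of tyrosine breakdown, −1.55, and both were called. Tat, tyrosine aminotransferase, was called near the threshold (−1.57, limma adjusted p = 0.0293) and was not called without 7w 2, 7w 3, ND 1 or ND 3 (limma adjusted p of 0.0541 to 0.131). Uox, urate oxidase, had a log2 fold change of −0.87 (limma adjusted p = 0.119), and without ND 2 it was −1.37 (limma adjusted p = 0.0227). Tdo2, which opens the ring of tryptophan, had 0.225 to 3.20 FPKM with CDA-HFD and 0.755 to 5.23 FPKM in ND, and its log2 fold change of −0.31 was 0.16 without ND 1. Cps1, the entry enzyme of the urea cycle, was at most 0.0679 FPKM with CDA-HFD and 0.476 to 0.989 FPKM in ND.

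The 4 cytochromes P450, which oxidise drugs and steroids, summed to 4.23 to 14.5 FPKM with CDA-HFD and 14.4 to 84.3 FPKM in ND. Of 3 tested 1 was called. Cyp3a11 had 0.190 to 3.92 FPKM with CDA-HFD and 9.93 to 41.96 FPKM in ND (log2 fold change −3.23, SE 0.48, limma adjusted p = 0.000224). Cyp2e1, the ethanol-inducible form, had 2.21 to 9.04 FPKM with CDA-HFD, against 13.1, 4.34 and 30.9 FPKM in ND, where ND 2 lay among the CDA-HFD values. Its log2 fold change was −1.10 (limma adjusted p = 0.118), and −1.77 without ND 2 (limma adjusted p = 0.00699). Cyp2c29 was listed at 0 in all 6 CDA-HFD libraries and had 1.18, 0.114 and 9.46 FPKM in ND. Cyp1a2 had 1.53 FPKM at most with CDA-HFD and 2.11 FPKM at most in ND, and it was listed at 0 in ND 2.

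The members did not fall in proportion to each other. This was described by setting each transcript against Alb of the same library. In this ratio the total amount of hepatocyte RNA in a library cancels, if both transcripts come from hepatocytes only. Mup3 stood at 27.3%, 7.12% and 17.6% of Alb at 7w and 10.6%, 17.8% and 15.4% at 10w, against 115%, 122% and 122% in ND. ND 2, whose hepatocyte sum was the lowest of ND, had a ratio of Mup3 to Alb within the range of the other ND libraries. This did not hold for every member. In ND 2 Fgb stood at 43.0% of Alb, beside 50.8% and 58.4% in ND 1 and ND 3. Apoa2 stood at 174% in ND 2, beside 152% and 160%. Serpina3k stood at 19.0% to 63.5% of Alb with CDA-HFD, against 120% to 135% in ND, and Fgb at 5.96% to 34.9%, against 43.0% to 58.4%. Fabp1 moved the other way, at 99.6% to 210% of Alb with CDA-HFD and 71.4% to 89.3% in ND. Ahsg overlapped, at 39.8% to 70.5% with CDA-HFD and 47.2% to 54.1% in ND, as did Mup20, at 23.9% to 54.7% and 35.5% to 43.9%.

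**Figure D4:**
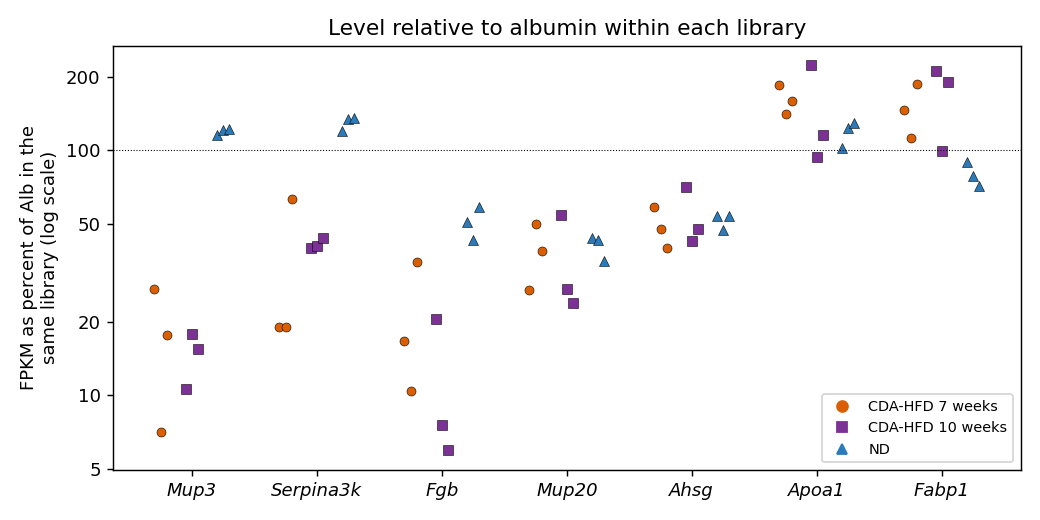
FPKM of 7 hepatocyte transcripts as a percent of Alb in the same library (y axis, log scale; dotted line, 100%), 1 point per library, in the order CDA-HFD 7 weeks (circles), CDA-HFD 10 weeks (squares) and ND (triangles) for each gene. Mup3, Serpina3k and Fgb are lower relative to Alb in all CDA-HFD libraries than in any ND library, and Fabp1 is higher, while Mup20, Ahsg and Apoa1 overlap.

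Of the other 41 members, 9 (Ambp, Cps1, Cyp2c29, Fga, Fgb, G6pc, Mup3, Plg and Serpina3k) were lower relative to Alb in all CDA-HFD libraries than in any ND library, 1 (Fabp1) was higher, and 31 overlapped. With CDA-HFD Cyp2c29 was listed at 0, and Cps1 and G6pc had at most an estimated 1.98 and 4.28 reads, so their ratios lay at the floor. Cps1 and Cyp2c29 were not among the genes tested. Of all other genes tested 1.88% were lower and 69.8% higher by the same criterion, since Alb itself fell. With the sum of the other members in place of Alb, the same 9 and Cyp3a11 were lower, Fabp1 and Apoa1 were higher, and 30 overlapped. As a share of the sum of all 42 genes, Mup3 was 0.575% to 1.98% with CDA-HFD and 7.73% to 8.50% in ND, and Fabp1 9.12% to 16.2% with CDA-HFD and 4.52% to 6.02% in ND. No test was made on these ratios, which were chosen after the values had been seen.

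The order of the members by level was similar with CDA-HFD and in ND, with a Spearman's rho of 0.84 across the 42 genes between the 2 group means. These points share libraries and are not independent replicates. Levels per length were lower for longer transcripts, with a rho of −0.63 between transcript length and the mean CDA-HFD level and −0.52 for the mean ND level. The share of the ND mean kept with CDA-HFD had a rho of −0.33 with length. The 11 transcripts of up to 1200 bases had a median level of 7.72 FPKM with CDA-HFD and 33.1 FPKM in ND, and the 12 of over 2400 bases 1.67 FPKM with CDA-HFD and 6.53 FPKM in ND.

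Markers of other cells that the sort could hold moved with the diet in different directions. The counts below stand beside 24.3% of all genes tested called lower with CDA-HFD and 22.8% called higher. The 16 markers of sinusoidal endothelial cells summed to 312 to 487 FPKM with CDA-HFD and 341 to 352 FPKM in ND, with 5 lower and 6 higher. Fcgr2b, an Fc receptor that macrophages also express, carried much of that sum with CDA-HFD (188 to 214 FPKM with CDA-HFD and 25.4 to 28.1 FPKM in ND). Without it the other 15 summed to 122.8 to 288 FPKM with CDA-HFD and 313 to 325 FPKM in ND. All CDA-HFD libraries lay below all ND libraries for this sum. The groups overlapped when Cdh5, which is also on the Kupffer cell list, was left out as well. Cdh5 had 5.57 to 16.2 FPKM with CDA-HFD and 80.3 to 81.5 FPKM in ND. The 14 of stellate cells and fibroblasts summed to 99.3 to 142 FPKM with CDA-HFD and 140 to 148 FPKM in ND, with 2 lower and 4 higher of 7 tested. Ecm1 alone had 80.1 to 107 FPKM with CDA-HFD and 128 to 136 FPKM in ND, and without it the other 13 summed to 15.6 to 35.2 FPKM with CDA-HFD and 4.91 to 12.2 FPKM in ND, the opposite direction. These genes were set apart after their values had been seen. The 6 erythroid markers with an entry moved with the hepatocyte transcripts and summed to 0.0930 to 13.2 FPKM with CDA-HFD and 42.2 to 48.3 FPKM in ND. Of 4 tested 3 were lower, Slc4a1 was listed at 0 in all libraries, and ND 2 was not low for this list. The part of these cells in the result was not tested.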

How the data were processed

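Libraries had been made by the authors with SMART-Seq HT and Nextera XT and sequenced as single-end reads of 75 bases. The processing notes of the submitters name featureCounts (2.0.1), HISAT2 (2.2.1), Trimmomatic (0.36.0) and the build GRCm38 (mm10). The study's methods add removal of duplicate reads with Picard. For counting they name Cufflinks or featureCounts, without saying which was used for these libraries. The deposited table of the authors gives 1 FPKM value for each gene symbol and library, and the methods speak of TPM, but column sums differ (444816 to 458788). Of 24776 entries 1 was incomplete and left out, and values that shared a symbol were summed. Depth was estimated from the steps that whole reads leave in low values (67.2% to 72.6% lay within 0.1 read of a whole number), and an exact 0 can be a failed estimate. Gapdh, which has many near-copies in the genome, had 0.697 to 11.1 FPKM, so genes with copies may be understated. Removal of duplicates caps long genes at 324 to 369 FPKM, above every value of the 42 transcripts. Values below the cap are compressed too, the more so the higher they are. Differences of the abundant members and of Kupffer cell markers may therefore be understated.

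Limma 3.58.1 (R 4.3.3; trend and robust) was fitted to log2(FPKM + 1) of all 9 libraries with 3 group means and no covariates. Tests were two-sided, with Benjamini-Hochberg adjustment over 11783 genes; fold changes on this scale understate the change of low genes. The test was tried on simulated data first. Over all genes tested, replicate numbers did not pair the libraries: deviations of same-numbered libraries correlated between −0.06 and 0.09. Errors after SE are limma standard errors. Alternatives were the pseudocount, the filter, scaling, the test's settings, a replicate block, the handling of shared symbols and each library left out. Values in every library are given for the 10 members with the highest mean, the 3 with the largest fall, and the pairs Serpina1a and Serpina1b, and Mup3 and Mup20; the rule also covered members called higher or called between time points, of which there were 0. Members and lists were chosen with earlier results of these data known.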

Additional observations from a re-analysis of the deposited data

How the results depend on the processing

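Of the 32 hepatocyte transcripts lower with CDA-HFD, 29 were called under all of the 21 alternatives that tested them, and Mat1a, Tat and Azgp1 were not. The number called lower was 25 with a filter of 5 FPKM, where 30 were tested, and 28 to 34 when 1 library was left out. For 7w against ND the number was 24 to 34 and for 10w against ND 25 to 31 when 1 library was left out, and 0 were called higher under any alternative. With the replicate number as a block (replicate block), 33 were lower, with Fabp1 and Cyp2e1 called and Mat1a lost, and for 7w and 10w against ND 34 and 31 were lower. Over all genes tested, same-numbered libraries did not deviate together. The summed level of the 42 transcripts, however, was lowest in replicate 2 and highest in replicate 3 of each group. Mat1a was also not called with a pseudocount of 0.1, with no filter or with quantile normalization, Tat with a pseudocount of 0.1, with no filter or without trend and robust settings, and Azgp1 without trend and robust settings. The log2 fold change of Tdo2 was 0.16 without ND 1, the 1 reversal among the members with CDA-HFD against ND, and −0.75 without ND 2. Without Apoa2 the mean sum at 7w was 225 FPKM, against 272 FPKM with it. A correction for the limit of duplicate removal, chosen after seeing the data, left 32 lower with a median log2 fold change of −1.86. The causes of these changes were not tested. Depth limits the low members: 1 read is worth 0.162 to 0.185 FPKM on a transcript of 1 kilobase.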

Other observations

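A wider list of 74 further hepatocyte genes, written with earlier results known, held 52 tested genes. Of these, 31 were lower with CDA-HFD and 3 higher, with a median log2 fold change of −1.23. Over all genes tested, 24.3% were lower and 22.8% higher. The largest falls were those of Mup7, Serpina1e and Hgd, an enzyme of tyrosine breakdown. Hgd had 0.564 to 3.48 FPKM in 5 CDA-HFD libraries and was listed at 0 in 10w 1, against 28.2, 15.3 and 25.7 FPKM in ND (limma adjusted p = 6.11e-06, log2 fold change −3.55). The genes that were higher did not follow the 42 transcripts, and which cells their transcripts came from was not tested. Hp, haptoglobin, had 97.3, 143 and 77.6 FPKM at 7w and 94.9, 102 and 92.2 FPKM at 10w, against 27.7, 14.0 and 33.3 FPKM in ND (log2 fold change 2.03, SE 0.29, limma adjusted p = 0.00110). F9, the clotting factor, had 7.19 to 15.3 FPKM with CDA-HFD and was listed at 0 in ND 1, with 0.995 FPKM in ND 2 and 1.23 FPKM in ND 3 (log2 fold change 2.56, limma adjusted p = 2.17e-05). Dpys, of pyrimidine breakdown, was the third (log2 fold change 1.31, limma adjusted p = 0.00612). In ND 2, which was low for most of the 42 transcripts, Hp was the lowest of the ND libraries as well.

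Trf, transferrin, which was at a higher level than any of the 42 transcripts, had a small measured change. It had 207 to 244 FPKM with CDA-HFD and 262 to 280 FPKM in ND (log2 fold change −0.29, SE 0.03, limma adjusted p = 1.55e-05), and ND 2 was not low for it. These values approached the cap of 324 to 369 FPKM that removal of duplicates sets, so differences of Trf may be understated. Cyp7a1, the rate-limiting enzyme of bile acid synthesis, and Mup2 were listed at 0 in all 9 libraries. Among 12 periportal genes 9 were tested, of which 4 were lower and 2 higher with CDA-HFD. The 2 were Asl, with 76.4 to 85.5 FPKM with CDA-HFD and 46.0 to 52.6 FPKM in ND, and Ass1. Ass1 had 16.5 to 38.0 FPKM with CDA-HFD and 2.22 FPKM at most in ND. Among 14 pericentral genes 7 were tested, of which 3 were lower and 0 higher. Over all genes tested, 24.3% were lower and 22.8% higher. Zonation of the hepatocyte transcripts was not tested, nor was which cells the transcripts of Trf, Asl and Ass1 came from.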
